A study of Mus musculus with 2 samples.

Results

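The mitochondrial carriers of the Slc25 family were examined in 2 RNA sequencing libraries, 1 from mice injected with vehicle and 1 from mice injected with clodronate. Members were all genes whose symbol is Slc25a followed by digits alone, which gave 47 of the 22886 genes in the deposited tables, each on a row of its own. According to the labels, the cells came from Lewis lung carcinoma (LLC) tumors under the skin of wild type C57BL/6 mice and were flow-sorted as aerobic tumor cells, and the libraries differ in the injection alone. Age, dose, carrier of the drug and the number of mice pooled were not given, and a growth protocol in the labels names EML cells, a blood progenitor line, for both libraries. With 1 library per condition there is no replicate, so the differences below describe these libraries and no p-value was computed.

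The label of the sorted cells was compared with marker genes. All 8 macrophage markers were abundant, between 261 and 11189 RPKM over both libraries. RPKM are reads scaled to transcript length and library size, so that levels of different genes can be compared. Of 5 epithelial markers, Epcam and Krt19 were listed at 0 throughout, and none exceeded 6.44 RPKM, the clodronate value of Cdh1. The T and NK cell markers were listed at 0 in both, and the 3 blood progenitor markers reached at most 1.46 RPKM. Macrophage markers thus stood far above the epithelial ones in cells labelled as tumor cells, genes particular to LLC cells were not looked at, and the libraries are named below by the injection alone. The 4 fibroblast markers summed to 143 RPKM with vehicle and 69.2 RPKM with clodronate, a sum made up mainly of Dcn (77.3 and 28.4 RPKM) and Col3a1 (62.1 and 34.4 RPKM), while Col1a1 was on the other side with 2.32 and 5.40 RPKM. Endothelial markers summed to 2.37 and 7.40 RPKM. Of the neutrophil markers, S100a8 had 12.7 and 23.1 RPKM and S100a9 was listed at 0 in both. In bulk RNA of this kind, fewer cells of a type and less RNA per cell cannot be told apart.

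Most Slc25 carriers are proteins of the inner mitochondrial membrane that let nucleotides, phosphate, carboxylates, amino acids and cofactors cross it. They usually do so by exchanging one solute for another. The best known are the ADP/ATP translocases, which bring ADP in for ATP synthase and send ATP out to the cytosol. In macrophages that take up clodronate, the drug is built into a non-hydrolysable ATP analogue that inhibits the ADP/ATP translocase, which is the textbook account of how clodronate liposomes kill these cells. The phosphate carrier supplies the other substrate of ATP synthase, and the citrate carrier delivers the carbon for fatty acid synthesis in the cytosol.

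Transcripts of the ADP/ATP translocases came mainly from one gene in both libraries. Slc25a5, also called Ant2, had 167.7 RPKM with vehicle and 192.9 RPKM with clodronate, whereas Slc25a4, or Ant1, the isoform known from heart and skeletal muscle, had 32.7 and 28.1 RPKM. Slc25a31, the isoform of the male germ line, was listed at 0 in both. Slc25a5 thus made up 83.7% of the summed ADP/ATP translocase RPKM in the vehicle library and 87.3% in the clodronate library, and its level exceeded that of Slc25a4 by 5.12-fold and 6.88-fold. The pair moved in opposite directions between the libraries and by little, 1.15-fold higher for Slc25a5 in the clodronate library and 1.17-fold higher for Slc25a4 in the vehicle library. Their log2 ratios, in which 1 RPKM is added to the clodronate and to the vehicle value before they are divided, were 0.20 and -0.22, and neither reached 1.5-fold. After a correction for the G and C content and length of the transcripts, described below, the log2 ratios were 0.30 and -0.11. The summed level of the translocases was 200.5 RPKM with vehicle and 221.0 RPKM with clodronate.

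In the deposited tables, which use the mouse genome build mm9, Slc25a5 lies on chromosome X from 34335647 to 34338801 and Slc25a4 on chromosome 8 from 47292698 to 47296363. As the isoforms differ in level within each library, their promoters are shown, taken from RefSeq on GRCm38.p6 and running from 250 bases before to 50 bases after the start of the gene. That of Slc25a5 is chrX:36795347-36795646 on the plus strand and that of Slc25a4 is chr8:46211013-46211312 on the minus strand. Both are written 5′ to 3′ in the direction of transcription, and capitals mark matches on either strand to any of 4 short motifs. The GC box was searched as GGGCGG. The CCAAT box was searched by the letters of its name. The TATA box was searched as TATAAA, so related letters such as the tataag in both sequences were not counted. The E box was searched as CACGTG.
Slc25a5: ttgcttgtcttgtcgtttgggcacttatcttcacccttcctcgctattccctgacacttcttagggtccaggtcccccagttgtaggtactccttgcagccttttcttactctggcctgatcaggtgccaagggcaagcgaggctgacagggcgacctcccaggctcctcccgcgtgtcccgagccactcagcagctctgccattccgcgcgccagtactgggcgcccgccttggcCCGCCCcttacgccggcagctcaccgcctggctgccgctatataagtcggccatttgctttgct
Slc25a4: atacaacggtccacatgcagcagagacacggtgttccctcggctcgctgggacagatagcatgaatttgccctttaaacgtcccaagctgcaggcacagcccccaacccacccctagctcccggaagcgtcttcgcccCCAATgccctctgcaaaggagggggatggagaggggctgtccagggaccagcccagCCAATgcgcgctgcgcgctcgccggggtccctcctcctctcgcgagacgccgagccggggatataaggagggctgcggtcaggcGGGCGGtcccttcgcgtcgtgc
The Slc25a5 promoter held 1 match, a GC box read on the opposite strand just before the start of the gene. That of Slc25a4 held 3, namely a pair of CCAAT boxes before the start and a GC box after it. No matches overlapped. The G and C content was 61.0% for Slc25a5 and 65.7% for Slc25a4. RefSeq gave promoters for 36 of the 47 carriers. Of the carriers that averaged 1 RPKM or more, 28 had 36 promoters, of which 32 (88.9%) held a GC box and 17 (47.2%) a CCAAT box. A GC box was held by 35.7% and a CCAAT box by 37.4% of all 32851 promoters listed, and over the 10643 promoters of genes that averaged 1 RPKM or more the shares were 62.3% and 37.5%. The TATA box letters occurred in 1 of the 36 carrier promoters and the E box in 7, against 7.31% and 10.2% of the promoters of genes at that level. These matches are a description of letters and were not tested.

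Slc25a5 is also the carrier whose transcript shares the largest percentage of its sequence with other genes. Of the 50-base words in its transcript, 46.6% also occur in other annotated transcripts, all of them from 9 processed pseudogenes. The percentage was 0% for Slc25a4 and 3.90% for Slc25a3. For Slc25a36 it was 11.8%, for Slc25a40 10.3% and for Slc25a37 8.07%. By number of words, Slc25a36 shared more, 613 against 555 for Slc25a5. The longest run of bases that the Slc25a4 and Slc25a5 transcripts share is 20 bases, so reads longer than that tell the isoforms apart where they match exactly. How reads with several matches were assigned is not given in the sources used here.

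**Figure D1:**
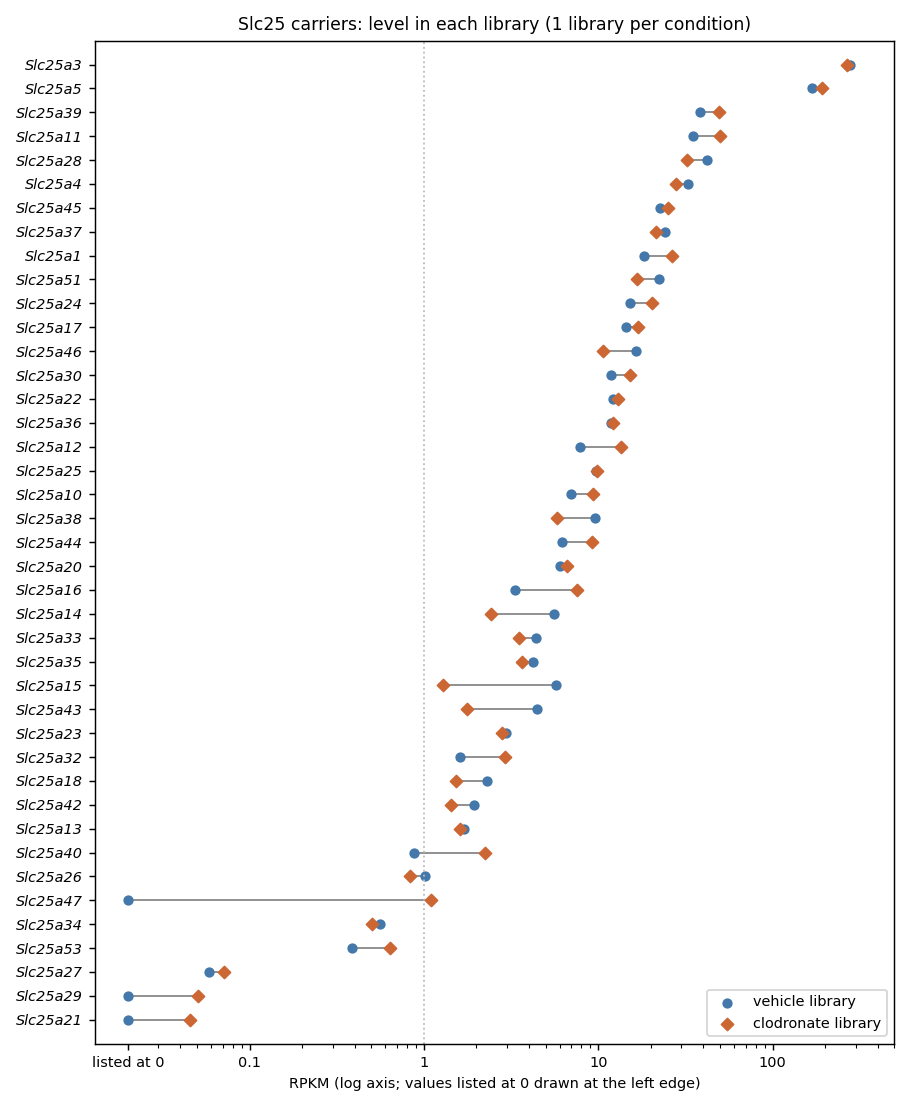
RPKM of 41 Slc25 carriers with a value above 0 in at least 1 library, on a log axis, with circles for the vehicle and diamonds for the clodronate library; values listed at 0 sit at the left edge and the dotted line marks 1 RPKM. Slc25a3 and Slc25a5 stand at 167.7 RPKM or more in both libraries and all other carriers at 50.03 RPKM or less, and the longest bar between 2 values above 0 is that of Slc25a15.

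The family was dominated by few members. Slc25a3, the phosphate carrier, on chromosome 10 from 90579323 to 90586708, had 279.0 RPKM with vehicle and 265.9 RPKM with clodronate and was the highest carrier in both. Slc25a3 and Slc25a5 together held 52.1% and 51.3% of the summed carrier RPKM. That sum was 856.8 RPKM with vehicle and 895.3 RPKM with clodronate, 1.04-fold higher in the latter, or 0.142% and 0.150% of the RPKM of all genes. The carriers at ranks 3 to 6 were the same 4 genes in both libraries, Slc25a28, Slc25a39, Slc25a11 and Slc25a4, in different orders. At least 10 RPKM was reached by 16 carriers in the vehicle and 17 in the clodronate library.

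At the other end, 5 carriers were listed at 0 in both libraries: Slc25a2, Slc25a31, Slc25a41, Slc25a48 and Slc25a54. The locus given for Slc25a2, an ornithine carrier, spans 911.6 kb, far more than a single carrier gene, so its value was not read. A further 3 were listed at 0 in the vehicle library alone. Of these, Slc25a47 had 1.10 RPKM in the clodronate library, while Slc25a29, a carrier of basic amino acids, had 0.0505 RPKM and Slc25a21, the oxodicarboxylate carrier, had 0.0453 RPKM. From the spacing of low values, 1 RPKM on a transcript of 1 kb was worth about 13.0 reads in the vehicle and 10.6 reads in the clodronate library. The value of Slc25a47 then rests on about 18 reads and those of Slc25a29 and Slc25a21 on about 1 read each. Slc25a27, a relative of the uncoupling proteins known from brain, had 0.0584 and 0.0716 RPKM, about 2 reads in each library.

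Differences between the libraries were small for most carriers. Averaged over the libraries, 35 of the 47 carriers and 10982 genes in all reached 1 RPKM, and these were kept. Nearest to this limit were Slc25a40 inside it, with 0.873 and 2.24 RPKM, and Slc25a26, the S-adenosylmethionine carrier, outside it, with 1.01 and 0.829 RPKM. Folds are counted here after 1 RPKM is added to both values. At least 2-fold higher in the clodronate library were 0 of the 35 carriers, against 6.95% of all genes kept. At least 2-fold lower was 1, against 6.77%. The counts are not read as particular to the carriers, since these percentages of 35 genes amount to few genes. From the RPKM alone, Slc25a16 was 2.25-fold and Slc25a40 2.57-fold higher in the clodronate library. On that scale Slc25a15 was 4.46-fold, Slc25a43 2.54-fold and Slc25a14 2.29-fold higher in the vehicle library, and the share of all genes was not counted. At 3-fold, 0 carriers were higher and 0 lower, against 2.86% and 2.32% of all genes kept. At 1.5-fold, 3 carriers were higher and 4 lower, against 16.6% and 16.3% of all genes kept. One of the 3, Slc25a40, was kept only through the library in which it was high. The median log2 ratio was 0.040 over the 35 carriers and 0.019 over all genes kept, with 19 carriers above 0 and 16 below.

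**Figure D2:**
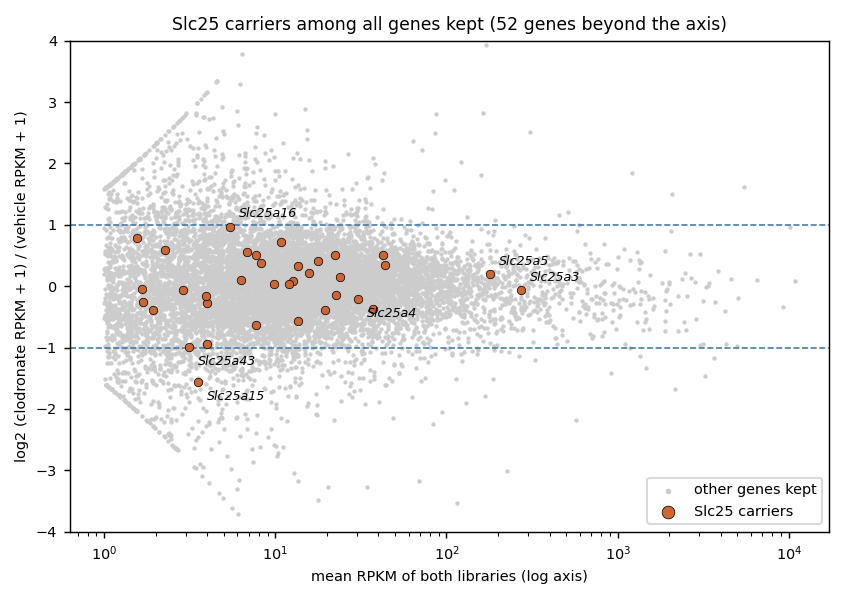
Log2 ratio between the libraries, clodronate over vehicle, against mean RPKM (log axis) for all 10982 genes kept (grey, 52 genes beyond the axis) and for the 35 Slc25 carriers among them (orange); dashed lines mark 2-fold. The carriers spread through the grey cloud. Of them Slc25a15 alone lies beyond 2-fold on this axis, where 1 RPKM is added to both values.

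Slc25a15 had the largest difference in the family among the carriers kept. This gene encodes the carrier that exchanges ornithine for citrulline across the inner membrane and links the urea cycle to the mitochondrion. Slc25a15, on chromosome 8 from 23486022 to 23509093, had 5.73 RPKM with vehicle and 1.28 RPKM with clodronate, about 256 and 47 reads. The vehicle value was 4.46-fold higher, or 2.95-fold after 1 RPKM is added to both (log2 ratio -1.56). It stood at rank 23 of the carriers in the vehicle library and at rank 35 in the clodronate library.

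The other carriers past 1.5-fold stood at 13.6 RPKM or below in both libraries. Slc25a43, with no assigned substrate, had 4.48 RPKM with vehicle and 1.76 RPKM with clodronate, about 65 and 21 reads (log2 ratio -0.99). Slc25a14, a relative of the uncoupling proteins also called UCP5, had 5.57 and 2.43 RPKM, about 128 and 46 reads (log2 ratio -0.94). Slc25a38, the glycine carrier needed for haem synthesis, had 9.58 and 5.81 RPKM (log2 ratio -0.64). With Slc25a15, these were the 4 lower ones. In the other direction, Slc25a16 had 3.33 RPKM with vehicle and 7.50 RPKM with clodronate, about 137 and 251 reads (log2 ratio 0.97). Slc25a40, a mitochondrial glutathione carrier, had 0.873 and 2.24 RPKM, about 32 and 66 reads (log2 ratio 0.79), and 10.3% of its words occur in a processed pseudogene. Slc25a12, the aspartate/glutamate carrier called aralar, had 7.87 and 13.6 RPKM, about 651 and 918 reads (log2 ratio 0.72). Slc25a32, the folate carrier, was just short of 1.5-fold on this scale, with 1.61 and 2.92 RPKM (log2 ratio 0.58), as was Slc25a46 on the lower side, a protein that acts in mitochondrial shape, with 16.4 and 10.7 RPKM (log2 ratio -0.57).

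By substrate, the carriers of di- and tricarboxylates lay on one side. Slc25a1, the citrate carrier, had 18.3 RPKM with vehicle and 26.5 RPKM with clodronate. Slc25a11, which exchanges oxoglutarate for malate and belongs to the malate-aspartate shuttle, had 35.0 and 50.03 RPKM. Slc25a10, the dicarboxylate carrier, had 6.99 and 9.39 RPKM. All 3 were on the higher side in the clodronate library, at log2 ratios of 0.51, 0.50 and 0.38, as were 5664 of the 10982 genes kept, so that a group of 3 on one side is not read as particular to these carriers. The sum of the group, Slc25a21 included, went from 60.3 to 85.9 RPKM. None of them reached 1.5-fold. Over all genes, log2 ratios went with the G and C content of the transcript, whose median ran from -0.24 among the genes poorest in G and C to 0.30 among the richest of the 10 bins. These carriers are rich in G and C, at 59.1% for Slc25a1, 54.2% for Slc25a11 and 60.6% for Slc25a10, against a median of 50.1% over all genes kept. After the trends with G and C content and with length were removed, the log2 ratios were 0.35, 0.50 and 0.13.

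Both glutathione carriers had higher values with clodronate, but Slc25a40, described above, reached a mean of 1 RPKM only through the clodronate library, so its direction is in part set by the filter. Slc25a39, the more abundant of the pair, had 38.6 RPKM with vehicle and 49.2 RPKM with clodronate (log2 ratio 0.34). After the same correction the log2 ratio of Slc25a39 was 0.18 and that of Slc25a40 was 1.04. The mitoferrins, which bring iron into the mitochondrion for haem and iron-sulphur clusters, were both on the lower side. Slc25a28, mitoferrin-2, had 41.9 and 32.2 RPKM (log2 ratio -0.37), and Slc25a37, mitoferrin-1, which is known from erythroid cells, had 24.01 and 21.5 RPKM (log2 ratio -0.15), and the corrected log2 ratios were -0.56 and -0.22. Neither pair was chosen by a test, and each holds 2 genes.

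**Figure D3:**
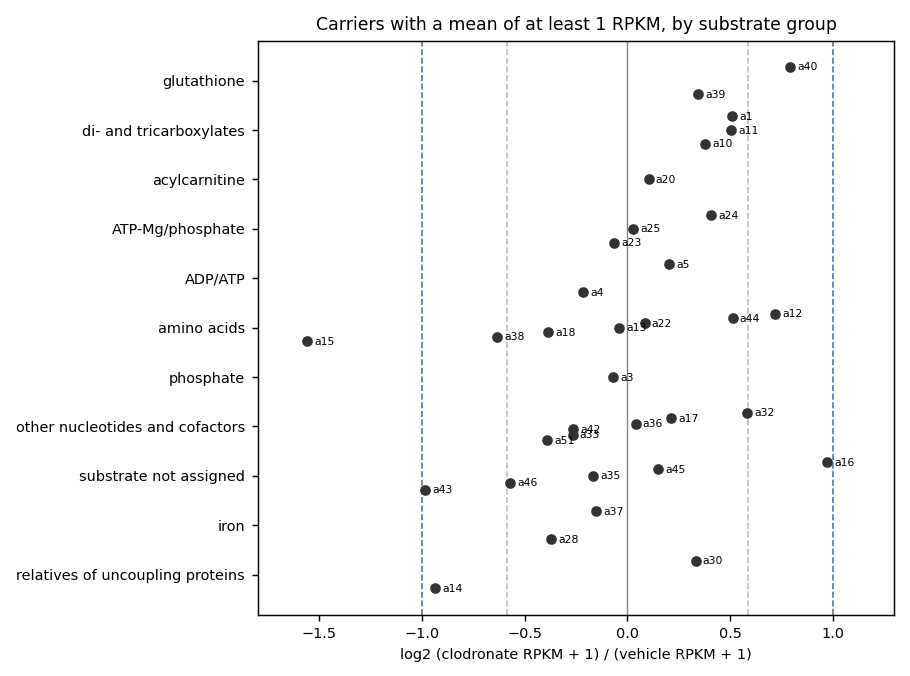
Log2 ratio of 34 of the 35 carriers kept, grouped by known substrate and labelled by the end of its symbol; grey dashed lines mark 1.5-fold, blue dashed lines 2-fold and the solid line no difference. The 3 carboxylate and both glutathione carriers lie right of 0, both iron carriers lie left of it, and the other groups with more than 1 point lie on both sides.

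The remaining groups with more than 1 carrier kept held members on both sides of 0. Of the 7 amino acid carriers kept, 3 were higher and 4 lower, with a median log2 ratio of -0.042. The isoforms of the aspartate/glutamate carrier were unlike in level and difference, since Slc25a13, or citrin, had 1.69 and 1.62 RPKM beside the higher values of Slc25a12. The mitochondrial glutamate carriers Slc25a22 and Slc25a18 had 12.2 and 13.0 RPKM and 2.31 and 1.53 RPKM. Slc25a44, which carries branched-chain amino acids, had 6.17 and 9.22 RPKM (log2 ratio 0.51). Of the 7 carriers of other nucleotides and cofactors that were kept, 4 were higher and 3 lower, with a median of 0.040. In this group Slc25a51, the NAD carrier, had the highest vehicle value, 22.2 RPKM, and 16.7 RPKM in the clodronate library. Slc25a17 of the peroxisome had 14.4 and 16.9 RPKM. The pyrimidine nucleotide carriers Slc25a36 and Slc25a33 had 11.8 and 12.2 RPKM and 4.42 and 3.51 RPKM. Slc25a42, a carrier of coenzyme A, had 1.93 and 1.44 RPKM.

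The ATP-Mg/phosphate carriers, which exchange ATP with magnesium for phosphate under the control of calcium, had small differences. Slc25a25 had 9.66 and 9.87 RPKM and Slc25a23 had 2.96 and 2.79 RPKM, while Slc25a24, the highest of them, had 15.2 and 20.4 RPKM (log2 ratio 0.41). Slc25a20, which carries acylcarnitines to beta-oxidation, had 6.06 and 6.58 RPKM. Slc25a30, another relative of the uncoupling proteins, had 11.8 and 15.1 RPKM (log2 ratio 0.33). Of the carriers with no substrate assigned here, Slc25a45 had 22.7 and 25.3 RPKM, Slc25a35 had 4.24 and 3.67 RPKM, and Slc25a34 and Slc25a53 stayed below 1 RPKM in both libraries.

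Some carriers lie near each other on the chromosome, and other genes between them were not looked for. Slc25a43 and Slc25a5 lie on chromosome X with 18449 bases between them. From the RPKM alone, Slc25a5 was 1.15-fold higher in the clodronate library while Slc25a43 was 2.54-fold higher in the vehicle library. Slc25a41 and Slc25a23 on chromosome 17 are 2056 bases apart, and Slc25a54 and Slc25a24 on chromosome 3 are 6566 bases apart. In both of these pairs 1 gene was listed at 0 in both libraries and the other was not. The fourth pair, Slc25a29 and Slc25a47 on chromosome 12, is the one with values in the clodronate library alone.

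Other genes of mitochondrial transport were set beside the carriers, 28 in all, of which 26 were kept. With clodronate 13 of them were higher and 13 lower, and their log2 ratios had a median of -0.050. At 2-fold 1 gene was higher and 1 lower, against 6.95% and 6.77% of all genes kept, so the counts are not read as particular to this list. The higher one was Sfxn5, with 1.35 and 3.79 RPKM, and the lower one Sfxn4, with 3.47 and 0.774 RPKM. Sfxn4 was kept only through the library in which it was high. Both are sideroflexins, a group with 3 genes higher and 2 lower and a median log2 ratio of 0.091. Ucp2, an Slc25 protein under another name that exports dicarboxylates, had 306.3 RPKM with vehicle and 346.7 RPKM with clodronate, more than any gene named Slc25a. Ucp1, the uncoupling protein of brown fat, and Ucp3 were listed at 0 in both. The pyruvate carrier subunits Mpc1, with 62.5 and 43.8 RPKM, and Mpc2, with 33.4 and 21.6 RPKM, were lower in the clodronate library. So were the outer membrane channels, with 95.0 and 69.4 RPKM for Vdac1, 94.5 and 85.6 RPKM for Vdac2 and 59.9 and 44.7 RPKM for Vdac3. Of these 5 genes Mpc2 alone reached 1.5-fold, at a log2 ratio of -0.61. Tspo, an outer membrane protein that binds cholesterol, had 256.9 and 158.6 RPKM (log2 ratio -0.69), and Ppif, the cyclophilin of the permeability pore, had 7.51 and 9.59 RPKM.

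**Figure D4:**
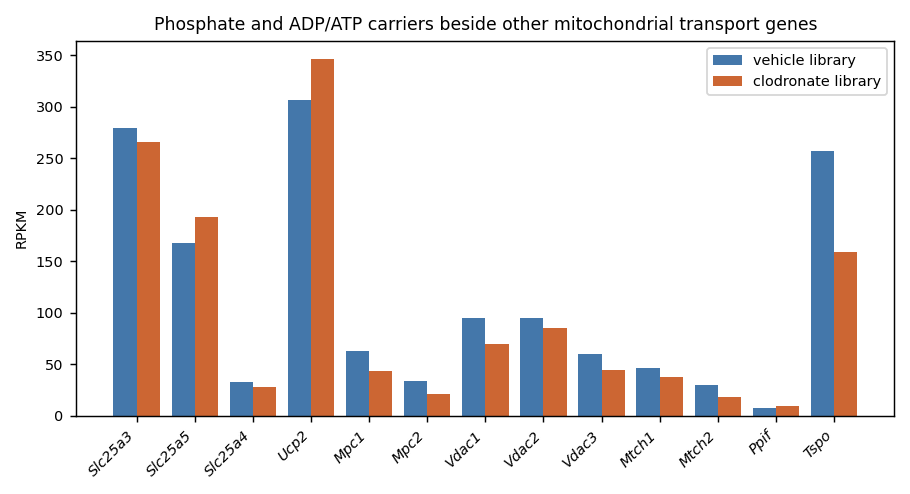
RPKM of the phosphate carrier, the ADP/ATP translocases and other mitochondrial transport genes in the vehicle (blue) and the clodronate library (orange), with 1 library per bar and no error. Slc25a3, Slc25a5 and Ucp2 are the highest members of the carrier family in both libraries, and the bars of Mpc1, Mpc2, the Vdac genes, the Mtch genes and Tspo are lower in the clodronate library.

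Of the 4 markers of dividing cells, 3 were higher in the clodronate library and 1, Pcna, was slightly lower. Mki67 had 16.7 RPKM with vehicle and 38.5 RPKM with clodronate, Birc5 had 2.81 and 27.1 RPKM, Top2a had 10.4 and 31.0 RPKM and Pcna had 175.8 and 166.9 RPKM. Their part in the values of Slc25a5 and of the other carriers was not tested, nor was that of the fibroblast and endothelial markers. With this design the injection and any other difference between the source mice, the sorting runs or the library preparations cannot be told apart.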

How the data were processed

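The authors deposited RPKM values for 23170 loci in each library, with 1 value per locus. The submitters' processing notes name CASAVA 1.8.2, TopHat2 2.0.9, Bowtie 0.12.9, Cufflinks 2.2.1, Cuffdiff and the build mm9, and the annotation release and the strand setting are not given in the sources used here. Values were summed by symbol. RPKM are not counts and the tables hold no read totals, so no count model and no interval was used. The log2 ratio had a pseudocount of 1 RPKM, which understates the change of low genes, and genes that averaged 1 RPKM or more were kept.

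The worth of 1 read was estimated from loci with 1 RefSeq accession. Of 434 loci below 0.5 RPKM in both libraries, 49 shared a vehicle over clodronate ratio of 0.816 within 0.01%. A worth was then computed for each of 354 loci of at least 3000 nt. Their values were in a ratio of whole numbers (within 0.004%, clodronate number at most 6). The median was taken over the fullest bin on a log scale, which held 52 of the 354 loci. Reads given are estimates of this kind, with lengths from GENCODE M21, and cover neither mapping error nor variation between mice. Locus starts in the tables count from 0 and were raised by 1, since end minus start equalled the RefSeq length for 7728 of 21855 loci. Words of 50 bases were searched in the GENCODE M21 transcripts, on the annotated strand.

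Carriers were named by a fixed rule, namely the ADP/ATP translocases, the 10 highest carriers and those past 1.5-fold, and any member could be added. One carrier is counted among the members but not reported here by itself, and its point is left out of the plots that label each carrier. The members and lists were chosen with earlier results of these data known, and the read estimate, the word search and the motif search were added after the values were seen. The alternatives were another pseudocount, filter, scaling, threshold and handling of repeated symbols, and a correction for G and C content and length, for which 98.7% of the genes kept had values. The fold call and the read estimate were tested on simulated data, whose noise was not fitted to these libraries. The other steps were not tested in this way. Python 3.11.15, numpy 2.4.6, pandas 2.3.3 and matplotlib 3.10.9 were used.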

Additional observations from a re-analysis of the deposited data

How the results depend on the processing

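No paired analysis was possible because vehicle and clodronate are represented by 1 library apiece, and no library could be left out. The summed carrier RPKM was 1.04-fold higher in the clodronate library and between 1.0007-fold and 1.05-fold under the alternatives. With rows of a repeated symbol reduced to the highest, nothing could change, since every carrier has 1 row. The carriers at least 2-fold higher and lower, 0 and 1 in the main setting, were 2 and 3 with a pseudocount of 0.1, where the background rose to 9.40% and 9.43% of genes. They were 1 and 1 with no filter on low values, where Slc25a47 enters (4.10% and 3.90% of genes), and 0 and 0 under a filter at a mean of 5 RPKM, which leaves Slc25a15 out (4.35% and 4.47%). They were 0 and 2 with ratios centred on their median (6.80% and 7.10% of genes) and also with upper quartile scaling (6.41% and 7.55%), where Slc25a43 passes, and 2 and 1 after the correction for G and C content and length (7.02% and 5.68%). At 3-fold they were 0 and 0, and at 1.5-fold 3 and 4. The median log2 ratio of the carriers was 0.18 among the 24 that averaged 5 RPKM or more, a subset of higher level, where that of all genes was 0.028, and -0.018 with upper quartile scaling, where that of all genes was -0.037. The log2 ratio of Slc25a15 lay between -2.07 and -1.56, that of Slc25a16 between 0.92 and 1.15 and that of Slc25a40 between 0.75 and 1.27. The direction of 4 carriers with a main log2 ratio of at most 0.084 in size changed under a scaling or the correction, Slc25a3 (0.050 after the correction), Slc25a22, Slc25a25 and Slc25a36. Carriers near 1 RPKM rest on few reads (about 32 and 66 for Slc25a40), and the 1 library per condition limits every difference given here.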
